A study of Mus musculus with 30 samples.

Results

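The NF-kB inhibitors and feedback targets are 10 genes, chosen by gene symbol: Nfkbia, Nfkbib, Nfkbie, Nfkbiz, Tnfaip3, Tnip1, Bcl3, Birc3, Icam1 and Ikbkb. They were examined among the 56951 gene symbols of an RNA-seq experiment on mouse gastrocnemius muscle, a limb muscle that was collected here together with the plantaris. Wild-type male C57BL/6J mice were bought at 10 weeks of age and housed singly with a running wheel. After entrainment to 12 h of light and 12 h of dark and a stay in constant darkness, the LD group (14 mice) stayed on the fixed light-dark cycle for 64 weeks. The ADV group (16 mice) spent the same time under a chronic jet lag schedule, in which the cycle was moved forward by 8 h every 4 days. Muscles were sampled in the daytime, over several hours, while both groups shared the same cycle, and the hour at which each mouse was sampled is not in the labels. Each library is 1 mouse and is named by its group and label number, as in LD 22. Muscle is a mixture of fibers and other cells, so fewer cells of a type and less RNA per cell cannot be told apart.

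NF-kB is a family of dimeric transcription factors held in the cytoplasm by the inhibitor of kappa B proteins until a kinase complex marks these for destruction. Several genes that NF-kB switches on encode its own inhibitors, and these close a negative feedback loop, so their mRNA is often read as a sign of NF-kB activity. In muscle the pathway is known for its part in inflammation and in the loss of muscle mass. Nfkbia, Nfkbib and Nfkbie encode the cytoplasmic inhibitors. Nfkbiz and Bcl3 encode related nuclear proteins that modify NF-kB at its target genes. Tnfaip3 encodes a ubiquitin-editing enzyme that shuts down signaling upstream of NF-kB, and Tnip1 encodes a protein that binds this enzyme. Birc3 encodes a ubiquitin ligase of the signaling complexes, Icam1 an adhesion molecule of endothelium that leukocytes bind, and Ikbkb the kinase that marks the inhibitors.

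Sequences just before the start of these genes are shown because several of them carry the letters that NF-kB binds. The start was taken from the transcript in the deposited tables, and a window from 250 bases before to 50 bases after it was read from the GRCm39 genome on both strands. In GENCODE vM39 the same transcript started farther upstream for 7 of 10 genes, by 609 bases for Icam1 and 23 for Nfkbie. On the minus strand, the deposited end minus that of GENCODE was -204 bases for Birc3, -167 for Bcl3, -99 for Tnip1, -28 for Tnfaip3 and -11 for Ikbkb. Positions given here are counted from the deposited start alone. The kappa B consensus, searched by its name alone, lay in the windows of 7 of 10 genes: Nfkbia, Nfkbie, Nfkbiz, Tnfaip3, Tnip1, Bcl3 and Birc3. Of 12028 windows of tested genes, 634 (5.27%) held it. In Nfkbiz and Bcl3 the match lay after the start. The runs read 5′ to 3′ on the strand of the gene, with kappa B matches in capitals. The first 4 are the 250 bases before the start of the genes on which the results turn.
Nfkbia, chr12:55539433-55539682, minus strand: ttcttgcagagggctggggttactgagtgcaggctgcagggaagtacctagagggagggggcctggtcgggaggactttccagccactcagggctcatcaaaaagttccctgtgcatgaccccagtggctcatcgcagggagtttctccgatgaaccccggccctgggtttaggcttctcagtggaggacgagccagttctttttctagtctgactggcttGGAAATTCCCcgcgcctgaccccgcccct
Tnfaip3, chr10:18891159-18891408, minus strand: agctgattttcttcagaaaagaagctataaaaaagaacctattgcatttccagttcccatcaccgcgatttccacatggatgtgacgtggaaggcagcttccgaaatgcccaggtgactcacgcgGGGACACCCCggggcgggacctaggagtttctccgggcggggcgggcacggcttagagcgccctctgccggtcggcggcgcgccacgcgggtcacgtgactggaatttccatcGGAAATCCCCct
Birc3, chr9:7873026-7873275, minus strand: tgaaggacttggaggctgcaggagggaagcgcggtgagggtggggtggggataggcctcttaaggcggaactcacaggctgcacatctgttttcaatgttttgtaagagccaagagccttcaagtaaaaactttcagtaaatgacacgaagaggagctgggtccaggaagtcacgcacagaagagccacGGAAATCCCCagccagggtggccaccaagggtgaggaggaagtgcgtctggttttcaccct
Nfkbib, chr7:28466066-28466315, minus strand: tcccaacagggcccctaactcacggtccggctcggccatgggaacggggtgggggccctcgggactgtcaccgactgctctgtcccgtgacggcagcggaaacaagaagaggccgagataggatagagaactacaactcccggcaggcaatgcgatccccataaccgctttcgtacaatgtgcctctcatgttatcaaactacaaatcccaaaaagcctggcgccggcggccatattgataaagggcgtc
The next pair shows the matches before the start of the other inhibitor and of Tnip1, with their neighboring bases.
Nfkbie, match at chr17:45866520-45866529: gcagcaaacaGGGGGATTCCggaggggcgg
Tnip1, match at chr11:54853815-54853824: ctccatcatgGGGGAATTCCcctcctgcct
The Tnip1 match is the first of 3 that overlap each other.

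Nfkbia has a single match, which begins 29 bases before its start, and Tnfaip3 has a pair before its start. Birc3 has a match that begins 61 bases before its start and another that begins at the start itself. The Nfkbib, Icam1 and Ikbkb windows held none. Other motifs were searched in the same windows on both strands. The AP-1 motif TGANTCA lay in the windows of Nfkbie and Tnfaip3 and in 4.71% of all windows. The E-box CACGTG, a clock motif, lay in that of Tnfaip3 and in 9.95% of all windows. The palindrome of the glucocorticoid receptor, searched by its name alone, lay in none of the 10 and in 0.324% of all windows. A match is a description of letters, and a window without one says nothing about the factor.

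Each library held between 18875468.5 and 28512674 read pairs on exons. Of all symbols, 12030 had a mean over 20 reads and over 0.5 FPKM (fragments per kilobase of exon, scaled by the reads of the library), and these were tested. Of the 10 genes, 9 passed this filter. Nfkbie did not, with a mean of 18.4 reads and 0.312 FPKM. Genes known for muscle fibers dominated the libraries, with a summed level of 65954 to 86510 FPKM for a list of 10, against 103 to 160 FPKM for 12 endothelial genes. The endothelial sum was 121 ± 10.7 FPKM in LD (SD, n = 14) and 135 ± 11.6 FPKM in ADV (SD, n = 16). Among genes tested, 9 of 12 endothelial and 6 of 10 muscle fiber genes were higher in ADV, beside 51.0% of all genes. For leukocyte genes it was 1 of 11 and for fibroblast genes 0 of 6. For adipocyte, Schwann cell and mural cell genes it was 4 of 4, 5 of 5 and 3 of 4. At an edgeR FDR under 0.05, 3 endothelial genes were higher, 1 fibroblast gene was lower and no others of these lists passed. Clock genes differed between the groups at an edgeR FDR under 0.05, where 5.74% of all genes tested were higher in ADV and 5.12% lower. By this measure all 7 genes listed as low when Bmal1 is high fell in ADV. Of 5 genes listed as high with Bmal1, 3 rose and the rest did not pass the test, and 10 of 16 immediate early genes tested rose. A clock score, the mean z score of genes high with Bmal1 minus that of genes low with it, ran from -3.17 to 1.10 in LD and from -1.33 to 2.30 in ADV.

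On the FPKM scale, which is per length, the genes fell into distinct levels. Nfkbia was the most abundant, at 11.9 ± 2.39 FPKM in LD (SD, n = 14) and 13.3 ± 3.59 FPKM in ADV (SD, n = 16). Nfkbib and Tnip1 lay close to it and to each other. Nfkbia exceeded Nfkbib in 20 of 30 libraries. Nfkbib exceeded Tnip1 in 4 of 14 LD and 11 of 16 ADV libraries, so the order of these 3 was not fixed. Tnip1 exceeded Ikbkb in all 30 libraries, and Ikbkb exceeded Birc3 in all 30. Further down, Birc3 exceeded Icam1 in 25 libraries, Icam1 exceeded Tnfaip3 in 28, and Tnfaip3 exceeded Bcl3 in 26. The order of Bcl3 and Nfkbiz was split by group in the same way, with Bcl3 higher in 4 of 14 LD and 11 of 16 ADV libraries. Nfkbie was lowest.

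**Figure D1:**
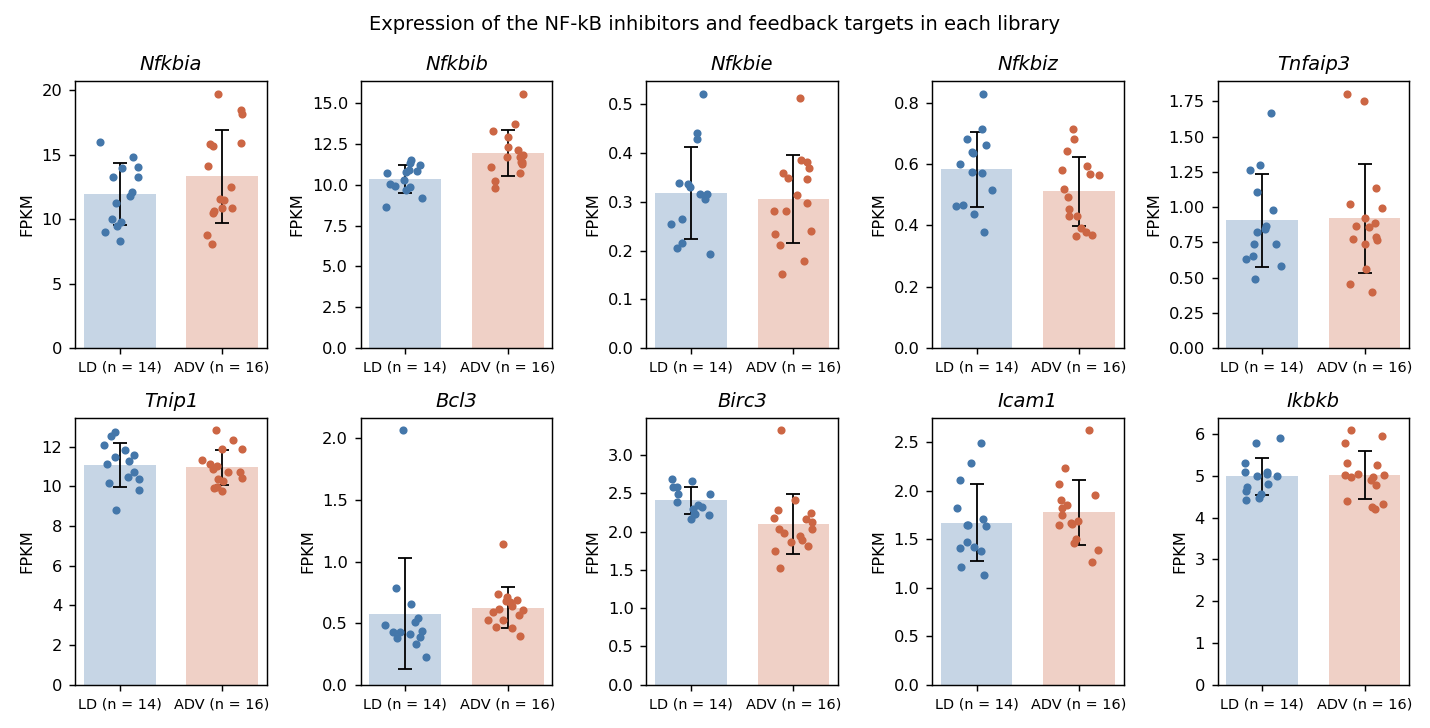
Level of each of the 10 genes in FPKM in every library, with LD (n = 14) in blue and ADV (n = 16) in orange. Points are mice, bars are means and error bars are SD. The groups overlap for every gene, and LD 22 stands alone at the top of the Bcl3 panel at 2.06 FPKM.

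To ask whether the misaligned schedule changed the mRNA of these inhibitors and feedback targets, ADV was compared with LD. Of the 9 genes tested, Nfkbib was higher in ADV and Birc3 was lower, both by small amounts, and the other 7 did not pass the test. With edgeR's quasi-likelihood test, 2 of 9 genes had an FDR under 0.05, where 10.9% of all genes tested did (5.74% higher and 5.12% lower in ADV). None had a fold change over 1.3 as well, whereas 2.09% of all genes did. DESeq2 gave the same 2 genes and again none past that fold. At an unadjusted p under 0.05, edgeR gave 2 of 9 beside a background of 30.0%. In all, 4 of 9 genes were higher in ADV, and their median log2 fold change was -0.00, beside 0.00 for all genes.

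The cytoplasmic inhibitors come first. Nfkbib ran from 8.66 to 11.5 FPKM in LD with a median of 10.5 FPKM. In ADV it ran from 9.79 to 15.6 FPKM with a median of 11.7 FPKM. The ranges overlapped, but 14 of 16 ADV libraries lay above the LD median and 9 lay above the highest LD library. The log2 fold change was 0.19 ± 0.06 (SE; edgeR FDR = 0.0276). The exact two-sided Wilcoxon rank-sum test of the FPKM values gave p = 5.06e-04, unadjusted.

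The difference in Nfkbib was smaller in some other settings, for reasons that were not tested. Its exons hold 58.8% G and C. When a spline of GC content was fitted to every library and removed, the difference was 0.09 ± 0.05 log2 units (SE; edgeR FDR = 0.249). Adding the share of reads on exons to the model gave 0.08 ± 0.06 (SE; FDR = 0.520). This share was 90.9% to 91.3% in LD and 91.1% to 92.7% in ADV, and ADV 34, the library with the highest Nfkbib level, also had the highest share. Without LD 28 the FDR was 0.0517.

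Nfkbia, itself a well-known target of NF-kB, ran from 8.29 to 16.0 FPKM in LD with a median of 12.0 FPKM, and from 8.07 to 19.7 FPKM in ADV with a median of 12.0 FPKM. The medians were alike, and 3 ADV libraries lay above every LD library. The groups differed by a log2 fold change of 0.14 ± 0.12 (SE; FDR = 0.446), with a 95% interval from -0.11 to 0.39. The exact Wilcoxon test gave p = 0.377.

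Nfkbie ran from 0.194 to 0.522 FPKM in LD and from 0.153 to 0.513 FPKM in ADV, with medians of 0.317 and 0.306 FPKM. The ranges overlapped almost wholly (Wilcoxon test by permutation, p = 0.877). With a median of 18.5 reads per library, counting error alone amounts to a coefficient of variation of 23.2%. The observed one was 29.5% in LD and 29.8% in ADV, so a small difference was not detectable at this depth.

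Among the nuclear relatives, Nfkbiz ran from 0.380 to 0.829 FPKM in LD with a median of 0.587 FPKM, and from 0.366 to 0.713 FPKM in ADV with a median of 0.505 FPKM. The ranges overlapped, and 4 of 16 ADV libraries lay above the LD median. Its log2 fold change was -0.20 ± 0.11 (SE; FDR = 0.233), with a 95% interval from -0.44 to 0.03.

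Bcl3 ran from 0.223 to 2.06 FPKM in LD with a median of 0.434 FPKM, and from 0.398 to 1.14 FPKM in ADV with a median of 0.611 FPKM. A single LD library, LD 22, lay above every ADV library, while 15 of 16 ADV libraries lay above the LD median. The 2 tests therefore differed: the exact Wilcoxon test, which uses ranks, gave p = 0.0194 (0.107 after Benjamini-Hochberg adjustment over all genes, with a normal approximation for genes with ties), whereas edgeR gave a log2 fold change of 0.10 ± 0.22 (SE; FDR = 0.787). Leaving out 1 library at a time moved the log2 fold change as far as 0.41, without LD 22, where the FDR was 0.0585. Bcl3 had a median of 26.5 reads per library.

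**Figure D2:**
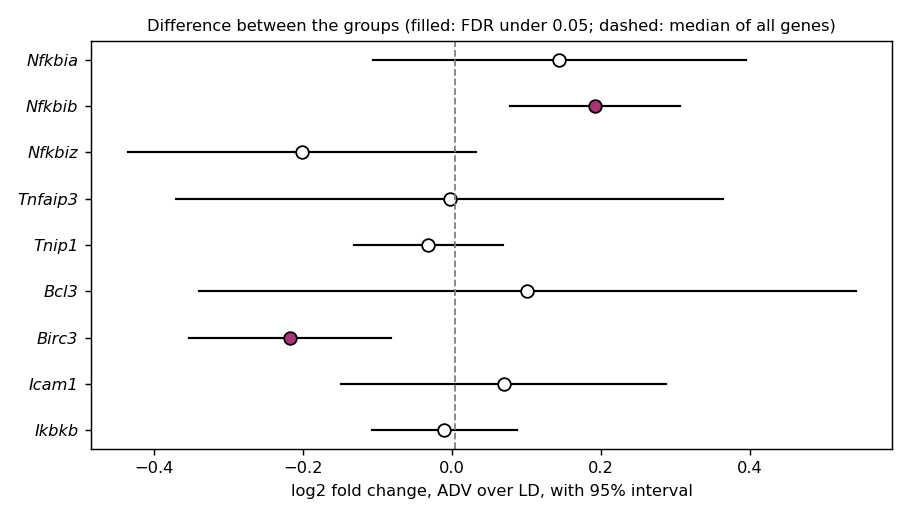
Log2 fold change of ADV over LD from edgeR for the 9 genes tested, with 95% intervals as lines. Filled points have an FDR under 0.05, and the dashed line is the median of all genes tested. Nfkbib at 0.19 and Birc3 at -0.22 are the filled points, and the intervals of the other 7 include 0.

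The signaling brakes did not pass the test. Tnfaip3 ran from 0.487 to 1.67 FPKM in LD with a median of 0.834 FPKM, and from 0.397 to 1.80 FPKM in ADV with a median of 0.864 FPKM. The groups covered nearly the same range. The log2 fold change was -0.00 ± 0.18 (SE; FDR = 0.993), with a 95% interval from -0.37 to 0.36, and the sign of so small a value turned under several settings. Among mice Tnfaip3 varied widely, with a coefficient of variation of 36.2% in LD and 42.2% in ADV, where counting error gives 10.4%.

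Tnip1 was among the steadiest of the 10. It ran from 8.83 to 12.7 FPKM in LD and from 9.78 to 12.8 FPKM in ADV, with medians of 11.2 and 10.8 FPKM. The ADV values lay within the LD range except for 1 library. Its log2 fold change was -0.03 ± 0.05 (SE; FDR = 0.690), with a 95% interval from -0.13 to 0.07. Taking out the GC trend gave -0.13 ± 0.05 (SE; unadjusted p = 0.00960, FDR = 0.0947). The exons of Tnip1 hold 57.9% G and C. They share 785 bases with the other strand of Gpx3, an abundant gene, in GENCODE vM39, and the strand setting of the counting is not known.

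Birc3 ran from 2.17 to 2.69 FPKM in LD with a median of 2.37 FPKM. In ADV it ran from 1.52 to 3.32 FPKM with a median of 2.04 FPKM. Of 16 ADV libraries, 2 lay above the LD median and 10 lay below the lowest LD library, while ADV 27 was the highest of all 30. The log2 fold change was -0.22 ± 0.07 (SE; edgeR FDR = 0.0331), and the exact Wilcoxon test gave p = 5.06e-04, unadjusted. Without ADV 27 it was -0.27 (FDR = 0.00257). The FDR passed 0.05 when any of 6 libraries was left out (LD 27, LD 29, LD 30, LD 35, ADV 25 or ADV 34), up to 0.0556. With the GC trend taken out, Birc3 was at -0.17 ± 0.07 (SE; FDR = 0.115). Adding the share of reads on exons gave -0.18 ± 0.08 (SE; FDR = 0.292). Adding a score of immediate early genes gave -0.16 ± 0.08 (SE; FDR = 0.363), and -0.11 ± 0.08 (SE; FDR = 0.620) with the GC trend also taken out.

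Icam1 ran from 1.13 to 2.49 FPKM in LD with a median of 1.64 FPKM, and from 1.27 to 2.62 FPKM in ADV with a median of 1.72 FPKM. The ranges overlapped, although 12 of 16 ADV libraries lay above the LD median. The log2 fold change was 0.07 ± 0.11 (SE; FDR = 0.698). Ikbkb, the kinase, ran from 4.43 to 5.90 FPKM in LD and from 4.20 to 6.08 FPKM in ADV, with medians of 5.00 and 4.99 FPKM. The log2 fold change was -0.01 ± 0.05 (SE; FDR = 0.907), with a 95% interval from -0.11 to 0.09.

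Of the 7 genes with no tied FPKM values, 3 had an unadjusted p under 0.05 in the exact Wilcoxon test (Nfkbib, Birc3 and Bcl3), beside 28.9% of the 9439 tested genes with no ties. Adding the endothelial score to the model gave a log2 fold change of 0.22 for Nfkbib (edgeR FDR = 0.0385) and -0.26 for Birc3 (FDR = 0.0397). Adding the clock score left log2 fold changes of 0.21 ± 0.08 for Nfkbib (SE; FDR = 0.329) and -0.22 ± 0.10 for Birc3 (SE; FDR = 0.359), as large as without it but with larger errors. No gene of the 12030 was called in that edgeR fit, and 1432 had an unadjusted p under 0.05. Clock phase and schedule moved together here and cannot be told apart.

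**Figure D3:**
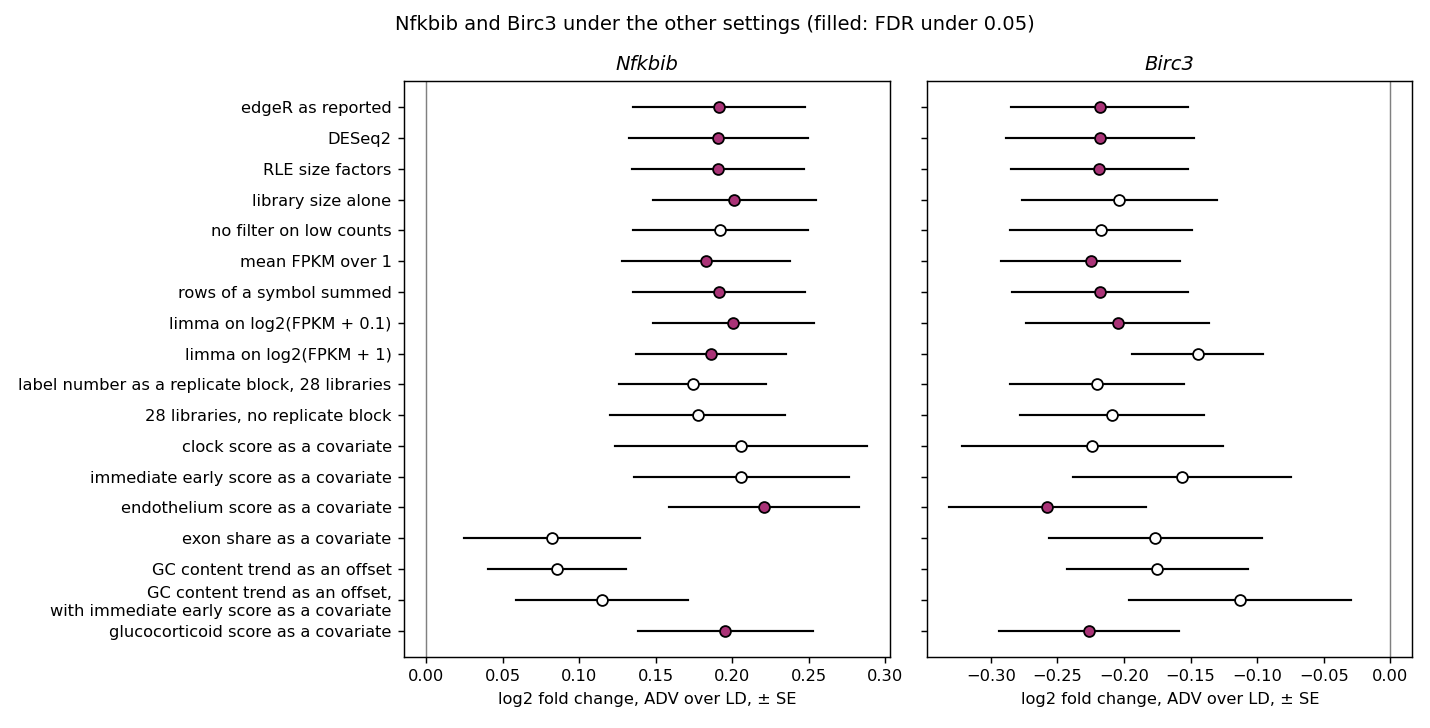
Log2 fold change of ADV over LD, with SE as lines, of Nfkbib (left) and Birc3 (right) under each setting other than leaving out a library. Filled points have an FDR under 0.05. The sign stayed the same in every setting shown, whereas Nfkbib had an FDR under 0.05 in 9 of the 17 other settings and Birc3 in 7.

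The spread among mice was compared as well, with limma on the absolute deviations from the group median. None of the 9 genes had an FDR under 0.05 or an unadjusted p under 0.05, beside 0% of all genes at that FDR and 809 of 12030 at an unadjusted p under 0.05. Birc3 had an SD of 0.11 log2 units in LD and 0.21 in ADV (limma FDR = 0.838). Bcl3 had an SD of 0.68 log2 units in LD and 0.30 in ADV (limma FDR = 0.730).

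The rest of the pathway was described with 5 lists of 82 genes, of which 63 were tested. Of these, 5 had an FDR under 0.05 (2 higher and 3 lower in ADV), or 7.94%, and their median log2 fold change was 0.03. None of the 5 subunits of NF-kB passed the test with edgeR, and 1 had an unadjusted p under 0.05. Nfkb1 had a log2 fold change of 0.09 (FDR = 0.0636; 0.0461 with limma on log2(FPKM + 0.1), and 0.0409 to 0.0479 with edgeR without LD 26, ADV 22 or ADV 31), Nfkb2 of 0.12 (FDR = 0.210) and Rela of 0.09 (FDR = 0.238). Of 7 ligands and receptors tested, 1 passed. This was Tnfrsf12a, the receptor of the cytokine TWEAK, which rose from 24.4 ± 10.9 FPKM in LD (SD, n = 14) to 58.1 ± 23.9 FPKM in ADV (SD, n = 16), a log2 fold change of 1.24 (edgeR FDR = 0.00158).

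Of 18 kinases and adaptors tested, Tab2, an adaptor of the kinase that activates the kinase complex, fell from 38.7 ± 2.65 to 35.5 ± 2.02 FPKM (FDR = 0.0280). The next in that list did not pass with edgeR: Traf6, an adaptor, had a log2 fold change of -0.16 (FDR = 0.0588; 0.0440 with DESeq2), and Map3k7, the kinase that Tab2 binds, one of -0.10 (FDR = 0.0754). Of 12 other negative regulators tested, Otulin, a deubiquitinase that removes linear ubiquitin chains, rose from 10.6 ± 1.99 to 14.1 ± 2.53 FPKM (FDR = 0.0107). In the same list Itch, a ubiquitin ligase, fell from 5.16 ± 0.40 to 4.69 ± 0.50 FPKM (FDR = 0.0472). Of 21 other targets tested, Mmp9, a matrix protease, fell from 1.53 ± 0.63 to 1.06 ± 0.29 FPKM (FDR = 0.0348). When 1 library at a time was left out, Tnfrsf12a, Otulin and Tab2 kept an FDR under 0.05 in 30 of 30 fits, Mmp9 in 24 and Itch in 12. With the immediate early gene score in the model, the log2 fold change was 0.78 for Tnfrsf12a (FDR = 0.133) and 0.13 for Otulin (FDR = 0.474). With the clock score in it, Tab2 was at -0.08 (FDR = 0.562), and with the GC trend taken out, Itch was at -0.07 (FDR = 0.233). On the log2(FPKM + 1) scale Mmp9 was at -0.27 (limma FDR = 0.0588). The cytokine and chemokine genes Tnf, Il1b, Il6, Ccl2, Ccl5, Cxcl1 and Cxcl10 were all below the filter, so the fit over 12030 genes did not test them. Ccl2, with a mean of 14.6 reads, was at 0.41 ± 0.23 FPKM in LD (SD, n = 14) and 1.06 ± 0.87 FPKM in ADV (SD, n = 16). Of the others, Cxcl1 and Cxcl10 had higher means in ADV, and Tnf, Il1b, Il6 and Ccl5 had lower ones. The fit with no filter included these genes, but their values in it are not given here.

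Since the group difference was small, the variation among mice of the same group was examined next. Each gene was centred on its group mean in log2 CPM (counts scaled by library size) and related to 4 scores across the 30 libraries: clock genes, immediate early genes, endothelial genes and glucocorticoid-responsive genes. This gave 36 relations, of which 2 passed after adjustment. Both were with the glucocorticoid score, the mean z score of Fkbp5, Tsc22d3, Per1, Sgk1, Zbtb16, Klf9, Klf15 and Mt2, genes that glucocorticoid hormones are known to induce. Per1 is also a clock gene.

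Nfkbia was higher in libraries with a higher glucocorticoid score, with Pearson's r = 0.72 (permutation p = 2e-05, adjusted 3.6e-04) and Spearman's rho = 0.73 (permutation p = 1e-05, adjusted 3.6e-04). The relation was present in both groups, with r = 0.80 within LD and 0.70 within ADV. Without the 2 libraries farthest from the median score, LD 33 and ADV 30, r was 0.73.

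Tnfaip3 went the other way, with r = -0.74 (permutation p = 1e-05, adjusted 3.6e-04) and rho = -0.74 (permutation p = 4e-05, adjusted 7.2e-04). Here r was -0.72 within LD and -0.80 within ADV, and -0.75 without the same 2 libraries. A p of 1e-05 is the smallest that 100000 permutations can give.

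The libraries with the lowest and highest score of each group show the size of this variation and its exceptions. Scores in this paragraph are not group-centred, unlike those used for the relations above. In LD, LD 21 had a glucocorticoid score of -1.16, with 8.29 FPKM of Nfkbia, the lowest in LD, and 0.867 FPKM of Tnfaip3, just above the LD median. At the other end LD 33 had a score of 1.56, with 11.8 FPKM of Nfkbia and 0.741 FPKM of Tnfaip3, both below the LD medians. In ADV, ADV 27 had a score of -1.31, 10.9 FPKM of Nfkbia and 1.80 FPKM of Tnfaip3, whereas ADV 30 had a score of 1.22, 18.2 FPKM of Nfkbia and 0.454 FPKM of Tnfaip3. The score itself covered similar ranges, -1.16 to 1.56 in LD and -1.31 to 1.22 in ADV, and none of its 8 genes had an FDR under 0.05 between the groups with edgeR (0.0552 for Klf9, which was lower in ADV and had 0.0330 with DESeq2, 0.214 for Sgk1 and 0.347 for Per1, and 1 of 8 had an unadjusted p under 0.05).

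**Figure D4:**
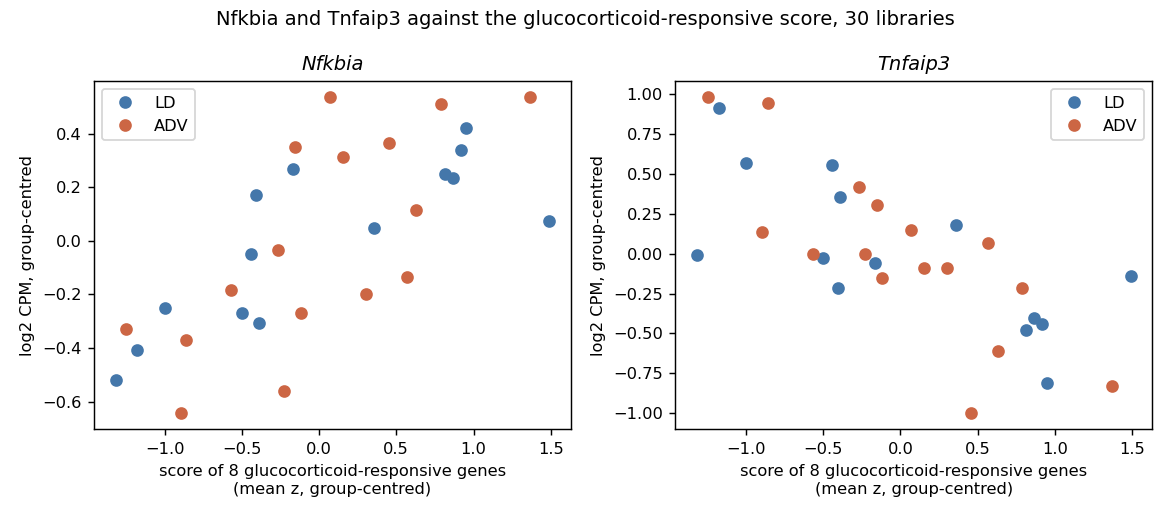
Group-centred log2 CPM of Nfkbia (left) and Tnfaip3 (right) against the group-centred score of 8 glucocorticoid-responsive genes, with LD in blue and ADV in orange and 1 point per library. Nfkbia climbs with the score (r = 0.72) and Tnfaip3 descends (r = -0.74), in both groups.

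The same was asked of every gene with an edgeR fit of group and score together, an alternative chosen after seeing the data. Per SD of the score, Nfkbia changed by 0.26 ± 0.05 log2 units (SE; FDR = 3.97e-04) and Tnfaip3 by -0.39 ± 0.06 log2 units (SE; FDR = 1.15e-04). Outside the genes of the score, 7.91% of 12022 genes had an FDR under 0.05 for this slope, and Nfkbia and Tnfaip3 were the only such genes among the 9. Nfkbiz had a slope of 0.12 log2 units (FDR = 0.199), and Birc3 and Nfkbib had slopes of -0.03 and 0.01 log2 units. Taken gene by gene, Nfkbia was positively related to all 8 genes of the score, with r from 0.39 to 0.77, and Tnfaip3 negatively to all 8, with r from -0.77 to -0.21. Of these 16 relations, 15 had a permutation p under 0.05 for r after adjustment over the 16. That of Tnfaip3 with Mt2 did not (adjusted p = 0.266), whereas by rho all 16 did. Nfkbia and Tnfaip3 were picked for their relation to the mean of these same 8 genes in the same libraries. The counts are thus a description and no separate support.

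Most pairs of the 9 genes had no relation that passed, which with 30 libraries does not show that they are unrelated. Of 36 pairs, 1 passed after adjustment: Nfkbia and Tnfaip3 were inversely related, with r = -0.58 (permutation p = 0.00108, adjusted 0.0389) and rho = -0.58 (permutation p = 0.00114, adjusted 0.0410). Within LD r was -0.75 and within ADV -0.49, and without ADV 23 and ADV 26 r was -0.64. On the log2(FPKM + 0.1) scale r was -0.53 and the adjusted p was 0.130, so the pair no longer passed, whereas both relations to the glucocorticoid score did. The next pairs, none of which passed, were Bcl3 with Icam1 (r = 0.39, adjusted p = 0.523) and Nfkbib with Tnip1 (r = 0.39, adjusted p = 0.523).

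**Figure D5:**
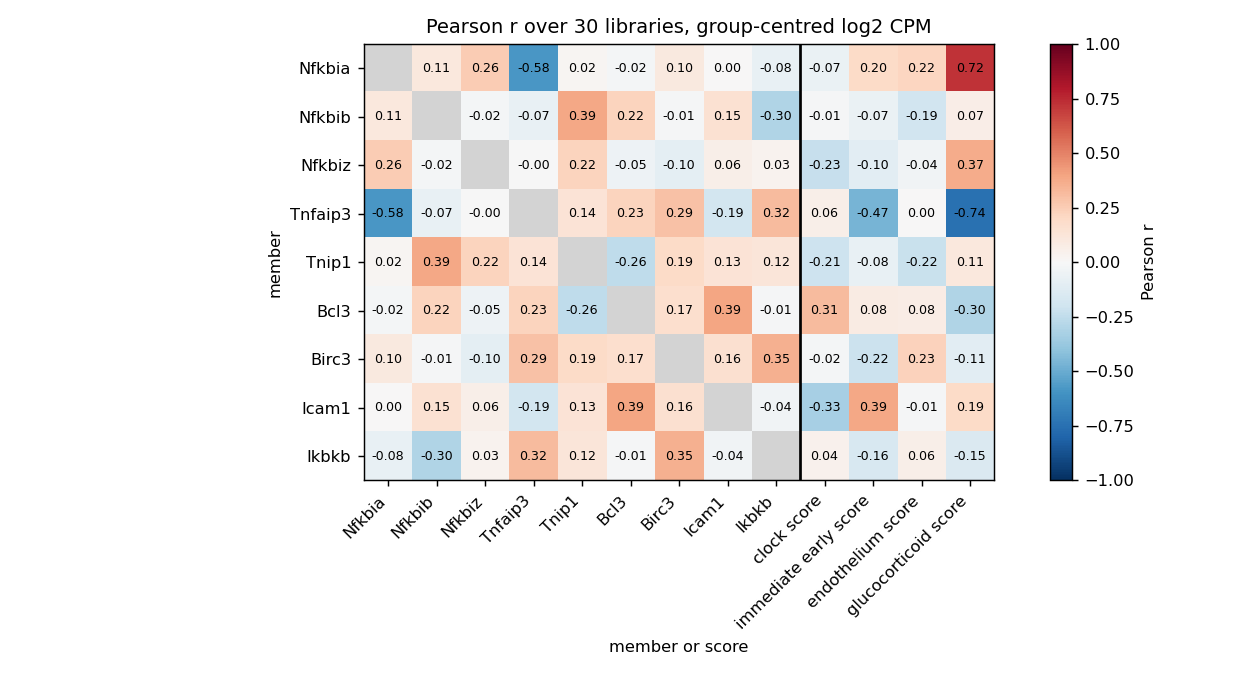
Pearson's r over 30 libraries between the 9 genes tested (left of the line) and between them and the 4 scores (right of the line), from group-centred log2 CPM. The strongest colors are Nfkbia and Tnfaip3 with the glucocorticoid score, at 0.72 and -0.74, and with each other, at -0.58.

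Genes whose pattern over the 30 libraries was most like that of a member were found by Spearman's rho over 12021 genes, as a description. Libraries share depth and composition, which such values include. For Nfkbia these were Fam107a (rho = 0.90), Kank3 (0.87), Lims2 (0.86), Map3k6 (0.85) and Fam117b (0.84). For Nfkbib they were Akr1a1 (0.75), Rps4x (0.74), Adrm1 (0.73), BC005624 (0.73) and Gle1 (0.72). For Birc3 they were Septin8 (0.70), Zfp11 (0.69), Agap1 (0.69), Champ1 (0.64) and Fip1l1 (0.63).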

How the data were processed

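RNA of 30 gastrocnemius muscles (14 LD, 16 ADV) had been sequenced after poly(A) selection with a stranded kit. Adaptors were trimmed by the authors (Trimmomatic), reads were aligned to the GRCm39 genome (STAR), alignments with a mapping quality under 10 were dropped, and Homer counted the remainder on exons of 57186 transcripts. The submitters' processing notes name STAR 2.7.10a and HOMER 4.11. The strand setting of the counting is not given in the sources used here. The authors deposited estimated counts, in which each mate is 0.5 read (14.8% are not whole), without normalization; these were rounded. The authors also deposited FPKM values, the count divided by exon length and library total.

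Depth was 18875468.5 to 28512674 read pairs on exons per library. Groups came from the labels. 1 row per symbol was kept, and 12030 genes with means over 20 reads and over 0.5 FPKM were tested with edgeR 4.0.16 (TMM, quasi-likelihood, Benjamini-Hochberg). FPKM values were compared with the exact Wilcoxon test (100000 permutations for ties), and spread with limma 3.58.1. Relations used 100000 permutations within groups. DESeq2 1.42.0 and other settings were alternatives. P-values for the groups judge a difference against the variation between mice, and those from permutations within groups judge a relation across libraries. The pipeline was tested on simulated data.

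The members and gene lists were chosen with earlier results of these data known. Named genes were all members; in each pathway list, genes whose fold change passed 1.3 at an FDR below 0.05, or else the 3 with the smallest p; and the 5 most alike genes of Nfkbia and of each member called. Clock and immediate early genes were given as counts. Itch and the genes under the filter were named after their values were seen. Ccer2 shares 314 exon bases with Nfkbib on the other strand and had a mean of 0.00973 FPKM. Gpx3 shares 785 exon bases with Tnip1 in GENCODE vM39, at a mean of 137 FPKM.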

Additional observations from a re-analysis of the deposited data

How the results depend on the processing

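Leaving out 1 library at a time left 1 to 2 of the 9 genes called, 838 (without LD 28) to 1542 of all genes, 188 to 300 of all genes with a fold change over 1.3, and 3 (without LD 30, ADV 24, ADV 25, ADV 32 or ADV 34) to 8 (without ADV 21) genes of the pathway lists, against 2, 1306, 251 and 5. None of the 9 genes had an FDR under 0.05 with a fold change over 1.3 in any setting run.

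The 2 calls became 1 with library size alone and with limma on log2(FPKM + 1), where 124 of all genes passed with the fold. They became 0 in the following settings, given with the calls among all genes, those with the fold and those in the pathway lists where they moved by over 1.5 times: no filter (627 genes; lists 3), GC trend (599; 164), clock score (0; 0; lists 0), immediate early score (35; 27; lists 0), exon share (45; 25; lists 0), and, chosen after seeing the data, GC trend with immediate early score (17; 17; lists 0). With the endothelial score both calls stood (581; 126; lists 1). The labels do not state that the numbers pair the samples. Over 14 same-numbered pairs r ran from -0.26 to 0.43, with a median of 0.01. Whether the numbers follow a batch or an order of sampling was not tested. The replicate block on 28 libraries gave 0 members, 491 genes, 136 with the fold and 2 in the lists, and the same libraries with no replicate block gave 0, 613, 151 and 2. With no filter, the adjustment covered 33968 genes. There the edgeR unadjusted p was 0.00187 for Nfkbib and 0.00289 for Birc3, beside 0.00176 and 0.00247 in the fit over 12030 genes. For the other settings the cause of the losses was not tested. In the pair relations, 1 became 0 on the log2(FPKM + 0.1) scale. The Wilcoxon count was 3 on each scale, and the spread count 0.

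Signs turned only for genes not called. Tnfaip3, at -0.00, was 0.0143 with library size alone, 0.00393 with limma on log2(FPKM + 1), 0.0429 with the block, 0.0482 with no block, 0.38 with the immediate early score, 0.41 with this and the GC trend, 0.0241 with the endothelial score, 0.0945 with the exon share, 0.0223 with the GC trend, and -0.0944 to 0.0887 without 1 library. Ikbkb, at -0.01, was 0.00264 with library size alone, 0.00528 and 0.00492 with limma, 0.0198 with the immediate early score, 5.65e-04 with this and the GC trend, 0.0581 with the exon share, and -0.0288 to 0.00966 without 1 library. Bcl3, at 0.10, was -0.32 with the clock score, -0.0584 with the immediate early score, -0.0532 with the GC trend and -0.20 with the last 2 together. Icam1, at 0.07, was -0.10, -0.00718 and -0.16 in the same order without the clock score. Tnip1, at -0.03, was 0.0259 with the clock score. Per1, at -0.39, was 0.35 with it. Rela, at 0.09, was -0.0243 with the GC trend and -0.0896 with this and the immediate early score, where Nfkb1, also at 0.09, was -0.0133. Nfkbia and Nfkbiz kept their sign, within 0.03 to 0.21 and -0.24 to -0.00963 over the settings other than leaving out a library.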

Other observations

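Nfkbiz went with the clock score differently in the 2 groups, with r = -0.81 and rho = -0.82 within LD, and r = 0.52 and rho = 0.30 within ADV. Without ADV 21, which stands apart in that score and was left out after seeing the data, r within ADV was 0.40 and rho was 0.15. Over all 30 libraries r was -0.23 (permutation p = 0.236, adjusted 0.734) and rho was -0.27 (permutation p = 0.153, adjusted 0.551). In an edgeR fit with an interaction of group and clock score, chosen after seeing these values, the slopes differed by 0.58 ± 0.15 log2 units per SD of the score (SE; unadjusted p = 5.44e-04, FDR = 0.173). No gene of the 12030 had an FDR under 0.05 for this interaction, and 1133 had an unadjusted p under 0.05, so the difference in Nfkbiz did not pass the correction.

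The genes whose pattern was most like that of Tnfaip3, looked up after its relation to the glucocorticoid score was seen, were Aplnr (rho = 0.79), Exd2 (0.78), Ralgds (0.77) and Zeb2 (0.75), over the same 30 libraries. Tnfaip3 was also lower in libraries with a higher immediate early gene score (r = -0.47, permutation p = 0.0129, adjusted 0.154) and Icam1 was higher (r = 0.39, permutation p = 0.0270, adjusted 0.243), neither of which passed the correction.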
